A study of Mus musculus with 47 samples.

Results

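Complement and coagulation genes encode the plasma proteins of innate immune attack and of clotting, and 38 of them were examined in chromatin of mouse liver. The rule takes them by name and mm9 gene span and uses no measured value, out of 22367 protein-coding genes of the annotation. The members were, however, chosen with earlier results of these data known. ChIP-seq, which sequences DNA bound to immunoprecipitated histones, was run for H3K27me3, H3K27ac and H3K4me1 on whole livers of 7 week old mice. Floxed control mice (Ezh2 f/f, without Cre) were compared with E1/E2-KO mice of the same sex, which are Ezh1-/- in all cells and carry Ezh2 f/f with the hepatocyte-specific Alb-Cre transgene. Ezh1 and Ezh2 are the alternative catalytic subunits of Polycomb repressive complex 2. Non-parenchymal cells of E1/E2-KO liver, such as endothelial and Kupffer cells, keep Ezh2. Every group and mark has 4 livers in the labels, apart from E1/E2-KO female H3K4me1 with 3. Reads of a group were pooled before regions were called, so each group is 1 list without replicates, no difference was tested, and the depth of the lists is unknown. A region in a list shows that the mark was called there, not how strong it was.

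H3K27me3 is a repressive mark that spreads over broad domains, whereas H3K27ac marks active promoters and enhancers and H3K4me1 marks enhancers, active or primed. The hepatocyte is the main source of most complement and clotting factors in plasma. Classical, lectin and alternative complement pathways converge on the cleavage of C3 and end in a membrane attack complex. The clotting cascade runs through serine proteases to thrombin, which turns fibrinogen into fibrin, and is held back by anticoagulants and by fibrinolysis. The recognition molecule of the classical pathway, C1q, is made mainly by macrophages and not by hepatocytes.

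The lists differed in length, which sets the background for each count. H3K27me3 regions covered 707 to 766 Mb per list. Of the H3K27ac lists that of control males was shortest, with 29359 peaks over 17.3 Mb, beside 49702 to 55930 peaks over 26.5 to 32.0 Mb in the other 3 lists. H3K4me1 peaks covered 24.0 to 36.2 Mb, with less in both female lists than in both male lists. Counts of members called by a rule are therefore read against the share of all 22367 genes called by it.

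In control liver the hepatocyte genes of the set were almost free of H3K27me3, and in E1/E2-KO liver many of them lay inside called regions. Coverage, the percent of a gene span inside H3K27me3 regions, was 0% in both control lists at 33 of 38 members, a pattern shared by 51.7% of all genes. From control to E1/E2-KO male liver it was higher by 25 points or more at 16 members (42.1%), beside 9.86% of all genes. It was lower by 25 points or more at 0 members, beside 6.07% of all genes. In female liver it was higher in E1/E2-KO at 8 members (21.1%), beside 6.29% of all genes, and lower at 0, beside 7.59%. Few members could fall by 25 points, since 3 had that much coverage in male and 4 in female controls. The 8 members of female liver were all among the 16 of male liver (3.32% of all genes were higher in both sexes). By span, 3 members of control male were covered to at least 50% (29.9% of all genes), 18 of E1/E2-KO male (32.5%), 3 of control female (29.8%) and 11 of E1/E2-KO female liver (28.7%). No base was covered at 33 members of control male (57.6% of all genes), 19 of E1/E2-KO male (52.9%), 34 of control female (57.4%) and 26 of E1/E2-KO female (59.2%). In bulk liver, a mark on more cells of a type and more mark per cell cannot be told apart. The paper cites a global loss of H3K27me3 in most hepatocytes of older E1/E2-KO mice. It proposes that sites with more of the mark could reflect non-parenchymal cells. Which cells carried the called regions, and how much mark they held, was not tested.

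**Figure D1:**
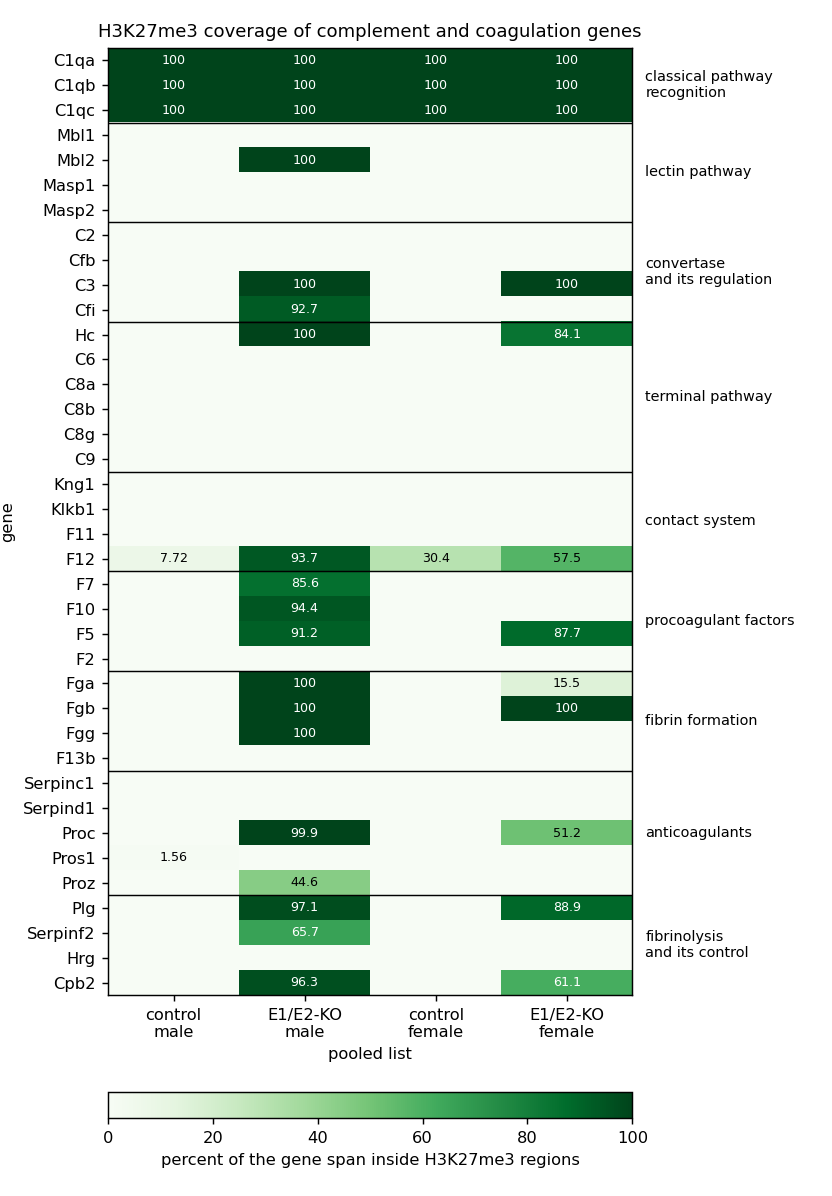
Percent of the gene span inside called H3K27me3 regions for 38 complement and coagulation genes (rows, grouped by role) in the 4 pooled lists (columns), with values above 0 printed. C1qa, C1qb and C1qc are at 100% throughout, and 16 further genes turn from low to high coverage in E1/E2-KO male liver, 8 of them also in E1/E2-KO female liver.

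The comparison was repeated among genes with H3K27ac at the start in all 4 lists and no H3K27me3 in either control list, a background chosen after seeing the data. Of 29 members in this class, coverage was higher in E1/E2-KO male liver at 14 (48.3%), beside 10.7% of 6421 such genes. In E1/E2-KO female liver it was higher at 6 (20.7%), beside 4.33%. Because neighbouring genes can share a region, members within 20 kb of each other were also joined and counted once. Of the 29 units so formed, coverage was higher in E1/E2-KO male liver at 12 and in E1/E2-KO female liver at 8. Joining all genes by the same distance gave 9300 units, of which 7.24% and 5.48% were higher. Members were joined with members only, whereas these units took in every neighbour, up to 75 genes. The shares of units are thus not a like background, and those of single genes were 9.86% and 6.29%.

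The C1q genes stood apart from the other members. C1qa, C1qc and C1qb, which encode the 3 chains of C1q, lie side by side on chromosome 4 from 136436044 to 136454718 (mm9). Each was covered to 100% in all 4 groups. A single region held all of them in each list, with a width of 354 kb in control and 302 kb in E1/E2-KO males, and 383 kb and 377 kb in the respective females. It also held the ephrin receptor genes Ephb2 and Epha8. H3K27ac was not called within 10 kb of C1qa in any list, and near C1qb and C1qc only a peak of 299 bp was called, in control female liver. H3K4me1 within 10 kb of C1qa measured 409 bp in control and 1058 bp in E1/E2-KO males, and 0 bp and 256 bp in the respective females, and near C1qb and C1qc it was 0 bp in all 4 lists.

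The promoter of C1qc, the one member promoter with the core site of the myeloid factor PU.1 (GAGGAAGT or its reverse complement, in capitals), is shown for contrast with the hepatocyte promoters further on. RefSeq gives it in GRCm38.p6, and its exact sequence lies at chr4:136448780-136449079 in mm9, on the minus strand, inside H3K27me3 in all 4 lists.
C1qc: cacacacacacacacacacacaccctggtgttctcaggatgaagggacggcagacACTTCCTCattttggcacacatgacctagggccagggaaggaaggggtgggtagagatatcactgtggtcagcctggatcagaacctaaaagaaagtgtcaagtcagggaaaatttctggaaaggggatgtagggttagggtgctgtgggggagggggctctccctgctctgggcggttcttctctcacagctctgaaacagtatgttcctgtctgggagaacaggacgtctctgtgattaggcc

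Among lectin pathway genes, Mbl2, which encodes a mannose-binding lectin, was the member whose coverage rose. It lies on chromosome 19 from 30307418 to 30314175. It was covered to 0% in control and 100% in E1/E2-KO males, and 0% and 0% in the respective females. The E1/E2-KO male region was 94.0 kb wide. The related lectin gene Mbl1 and the protease genes Masp1 and Masp2, which cleave complement components for the lectins, had 0% coverage in all 4 lists.

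Genes of the C3 convertase and its regulation divided in the same way. C3, the component on which the pathways converge, is on chromosome 17 from 57343397 to 57367559. It was covered to 0% in control and 100% in E1/E2-KO males, and 0% and 100% in the respective females, by regions of 58.0 kb in male and 64.4 kb in female liver. Cfi, which encodes the protease factor I that inactivates C3b, was covered to 0%, 92.7%, 0% and 0% in the same order, so that the E1/E2-KO male list alone held it. C2 and Cfb, neighbours that encode the proteases of the convertases, were at 0% in all 4 lists.

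The C3 promoter, inside H3K27me3 in both E1/E2-KO lists and in neither control list, is printed below from RefSeq (GRCm38.p6), from 250 bases before to 50 bases after the start. It was placed in mm9 at chr17:57367510-57367809, minus strand. Capitals mark a C/EBP site (TTGCNNAA), the motif of a factor family of hepatocytes and of the acute-phase response, and the letters TATAAA, which begin 14 bases after the annotated start.
C3: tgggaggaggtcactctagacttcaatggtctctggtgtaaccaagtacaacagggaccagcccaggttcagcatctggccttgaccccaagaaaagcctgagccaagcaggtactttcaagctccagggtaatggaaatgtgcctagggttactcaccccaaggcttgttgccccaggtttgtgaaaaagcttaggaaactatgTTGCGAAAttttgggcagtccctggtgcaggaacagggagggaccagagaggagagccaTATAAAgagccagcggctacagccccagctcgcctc

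In the terminal pathway, which builds the membrane attack complex, Hc was the member with a called change. Hc encodes C5 and spans 78.1 kb of chromosome 2. It was covered to 0% in control and 100% in E1/E2-KO males, and 0% and 84.1% in the respective females. A region of 128 kb covered it in male liver, and 3 regions of 12, 17.2 and 44.4 kb in female liver. C6, C8a, C8b, C8g and C9 had 0% coverage in all 4 lists.

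Of the contact system, F12 (factor XII) differed from the other members with a rise, since it was partly covered in control liver. Its values were 7.72% in control and 93.7% in E1/E2-KO males, and 30.4% and 57.5% in the respective females. The control regions, 24.0 kb in male and 26 kb in female liver, reached its 3′ end from the side of Slc34a1. The female rise of 27.2 points was the smallest above the threshold, and Fga, with 15.5 points, was the nearest below it. Kng1 (kininogen), Klkb1 (plasma prekallikrein) and F11 (factor XI) were at 0% in all lists.

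Of the procoagulant factors, 3 of 4 gained coverage in E1/E2-KO male liver. F5, which encodes the cofactor of the prothrombin-cleaving enzyme, spans 68.4 kb of chromosome 1 and was covered to 0% in control and 91.2% in E1/E2-KO males, and 0% and 87.7% in the respective females. In each E1/E2-KO list it was held by 3 regions, of 57.6, 19.2 and 33.6 kb in male and of 56.8, 18.4 and 32.8 kb in female liver, so the breaks between regions fell at nearly the same places in both sexes. F7 (factor VII, which starts the extrinsic pathway) rose from 0% to 85.6% in male liver and was at 0% in both female lists. F10 (factor X), its neighbour, rose from 0% to 94.4% in male liver and was also at 0% in both female lists. The next gene on the chromosome, Proz, which encodes protein Z, a cofactor in the inhibition of factor Xa, went from 0% to 44.6% in male liver, the smallest male rise that was counted, and was at 0% in both female lists. F2, the prothrombin gene, had 0% coverage in all 4 lists.

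All 3 fibrinogen genes gained coverage in E1/E2-KO male liver. Fga, Fgb and Fgg encode the chains of fibrinogen and lie side by side on chromosome 3, from 82811781 to 82853725. Fgb was covered to 0% in control and 100% in E1/E2-KO males, and 0% and 100% in the respective females. Fga was at 0%, 100%, 0% and 15.5% in the same order, and Fgg at 0%, 100%, 0% and 0%. In E1/E2-KO male liver, a region of 36.4 kb held Fga and Fgb, and another of 34.8 kb held Fgg. The first of these overlapped no control region, and 9 H3K27ac peaks with 4387 bp lay inside it. The E1/E2-KO female region was narrower, at 20.8 kb, and began inside Fga. F13b, the gene of the carrier subunit of the fibrin-crosslinking factor XIII, was at 0% in all lists.

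**Figure D2:**
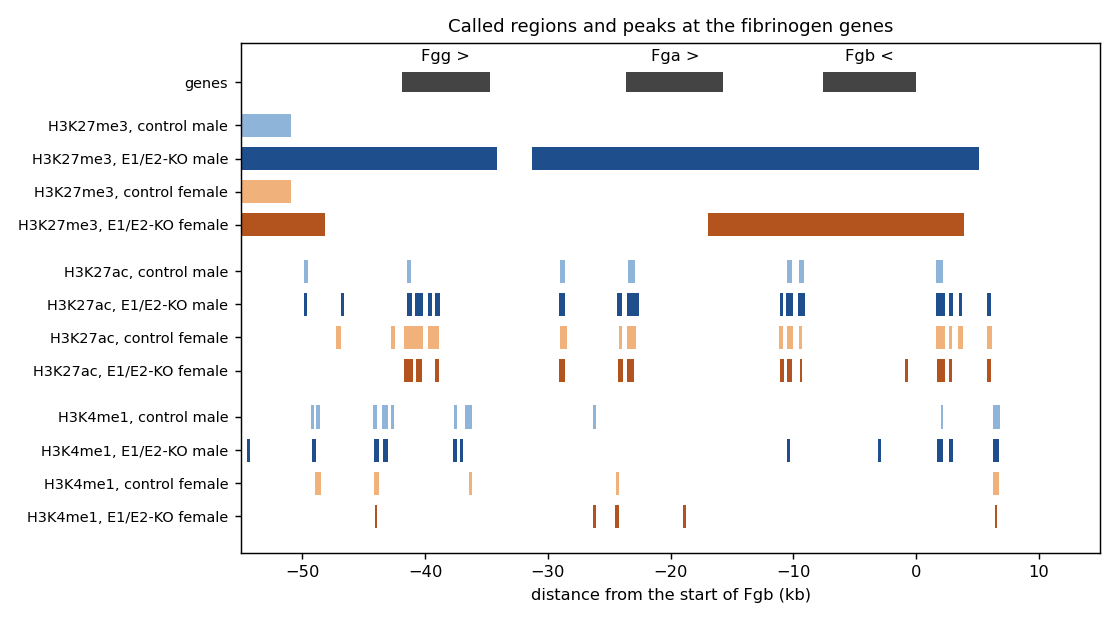
Map of the fibrinogen genes with the called H3K27me3 regions, H3K27ac peaks and H3K4me1 peaks of the 4 pooled lists, by distance from the start of Fgb in kb (arrowheads beside gene names show the direction of transcription). H3K27me3 regions run across the genes in E1/E2-KO male liver and across Fgb in E1/E2-KO female liver, while no control region reaches a fibrinogen gene, and the control male list has the fewest H3K27ac peaks.

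The fibrinogen promoters are shown because 2 of them share the letters CTGGGAA, the core of the type II acute-phase element that STAT3 binds, and 2 share the C/EBP motif. They are from RefSeq (GRCm38.p6) and were placed in mm9 at chr3:82829825-82830124 (plus strand), chr3:82853736-82854035 (minus strand) and chr3:82811396-82811695 (plus strand). Capitals mark TTGCNNAA in Fga, both motifs in Fgb and CTGGGAA in Fgg, on either strand.
Fga: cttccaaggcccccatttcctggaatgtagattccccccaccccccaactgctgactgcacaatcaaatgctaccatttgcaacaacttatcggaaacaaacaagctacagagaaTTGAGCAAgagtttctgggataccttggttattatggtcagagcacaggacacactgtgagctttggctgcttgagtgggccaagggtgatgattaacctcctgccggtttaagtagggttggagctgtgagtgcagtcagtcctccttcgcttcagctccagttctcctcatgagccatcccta
Fgb: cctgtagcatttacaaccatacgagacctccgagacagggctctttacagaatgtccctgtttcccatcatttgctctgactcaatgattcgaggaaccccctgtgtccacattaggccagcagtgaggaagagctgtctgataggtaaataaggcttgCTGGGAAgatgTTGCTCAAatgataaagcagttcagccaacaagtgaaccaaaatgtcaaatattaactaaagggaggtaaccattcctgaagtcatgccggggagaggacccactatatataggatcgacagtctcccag
Fgg: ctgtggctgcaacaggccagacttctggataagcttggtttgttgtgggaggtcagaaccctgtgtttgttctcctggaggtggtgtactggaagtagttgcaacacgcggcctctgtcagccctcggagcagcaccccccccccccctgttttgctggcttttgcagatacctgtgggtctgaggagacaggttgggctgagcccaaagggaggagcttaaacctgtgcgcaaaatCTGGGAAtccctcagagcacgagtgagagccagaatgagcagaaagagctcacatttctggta
All 300 bases of each of the 3 promoters lay inside H3K27me3 in E1/E2-KO male liver, those of Fgb alone in E1/E2-KO female liver, and no base of them in control liver.

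Anticoagulant genes were divided as well. Proc, which encodes protein C, the protease that inactivates factors V and VIII, was covered to 0% in control and 99.9% in E1/E2-KO males, and 0% and 51.2% in the respective females. Proz rose in male liver, as given above with its neighbours. Serpinc1 (antithrombin) and Serpind1 (heparin cofactor II) were at 0% in all 4 lists, and Pros1, the gene of protein S, the cofactor of protein C, was at 1.56% in control male liver and at 0% in the others.

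Fibrinolysis and its control gave 3 rises among 4 genes in male liver. Plg, the plasminogen gene, was covered to 0% in control and 97.1% in E1/E2-KO males, and 0% and 88.9% in the respective females. It lies on chromosome 17 from 12571475 to 12612250, and regions of 91.2 and 142 kb held it in male and one of 102 kb in female liver. Cpb2, whose product trims fibrin so that plasmin binds less, was at 0%, 96.3%, 0% and 61.1% in the same order. Serpinf2, which encodes the plasmin inhibitor α2-antiplasmin, was at 0%, 65.7%, 0% and 0%. Hrg, which encodes histidine-rich glycoprotein, had 0% coverage in all lists.

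Regions over members were compared with those over any protein-coding gene. E1/E2-KO male liver held 19 regions over members, with a median width of 36.4 kb, of which 9 overlapped no region of control male liver, beside 17.4% of 9273 regions over genes. E1/E2-KO female liver held 13, with a median width of 32.8 kb, of which 8 overlapped none of control female liver, beside 14.2% of 9171. Control male liver held 3 regions over members, of which 1 overlapped no region of E1/E2-KO male liver, beside 18.0% of 9310 regions over genes. Control female liver held 2, of which 0 were without overlap in E1/E2-KO female liver, beside 21.0% of 10302. These counts follow in part from control coverage, which was 0% in both lists at 33 of 38 members, beside 51.7% of all genes. They are not a result apart from the change in coverage.

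Coverage at the members also differed between the sexes, in E1/E2-KO liver. It was higher in E1/E2-KO male than in E1/E2-KO female liver by 25 points or more at 11 members (28.9%), beside 11% of all genes. These were Mbl2, Cfi, F12, F7, F10, Fga, Fgg, Proc, Proz, Serpinf2 and Cpb2. At 0 members was it higher in E1/E2-KO female liver (4.76% of all genes). In control liver 0 members differed by 25 points in either direction, beside 6.38% of all genes higher in male and 5.28% higher in female liver.

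H3K27ac peaks near members were set against all H3K27me3 regions of the same list, whether or not control liver had them. In control male liver 0 of 117 H3K27ac peaks within 10 kb of members overlapped an H3K27me3 region, beside 15.5% of all H3K27ac peaks of that list. In E1/E2-KO male liver 67 of 183 (36.6%) did so, beside 33.6% of all peaks. In control female liver the count was 1 of 161 (0.621%), beside 19.1%, and in E1/E2-KO female liver 30 of 172 (17.4%), beside 22.2%. The share near members was below that of all peaks in both control lists and in E1/E2-KO females, and near it in E1/E2-KO males. For H3K4me1 the values were 4 of 161 peaks (2.48%) in control and 54 of 133 (40.6%) in E1/E2-KO males, and 1 of 92 (1.09%) and 11 of 77 (14.3%) in the respective females, beside 27.7%, 39.9%, 25.9% and 27.9% of all H3K4me1 peaks.

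The start of the gene lay inside H3K27me3 at 3 members of control male (34.6% of all genes), 14 of E1/E2-KO male (39.1%), 3 of control female (35.4%) and 8 of E1/E2-KO female (34.1%). Both control counts are those of the C1q genes. Beyond this, 10 members of E1/E2-KO male liver had both a start inside H3K27me3 and an H3K27ac peak within 1 kb of it, beside 17.1% of all genes. They were Mbl2, C3, Cfi, Hc, F7, F5, Fga, Fgg, Proz and Plg. In E1/E2-KO female liver they were C3, Hc, F5, Fgb and Proc (5 members, beside 12.7% of all genes). In control male liver there were 0 such members, beside 7.59% of all genes, and in control female liver 1, C1qb, beside 11.8%. Whether both marks were on the same cells or alleles cannot be told apart in whole liver.

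**Figure D3:**
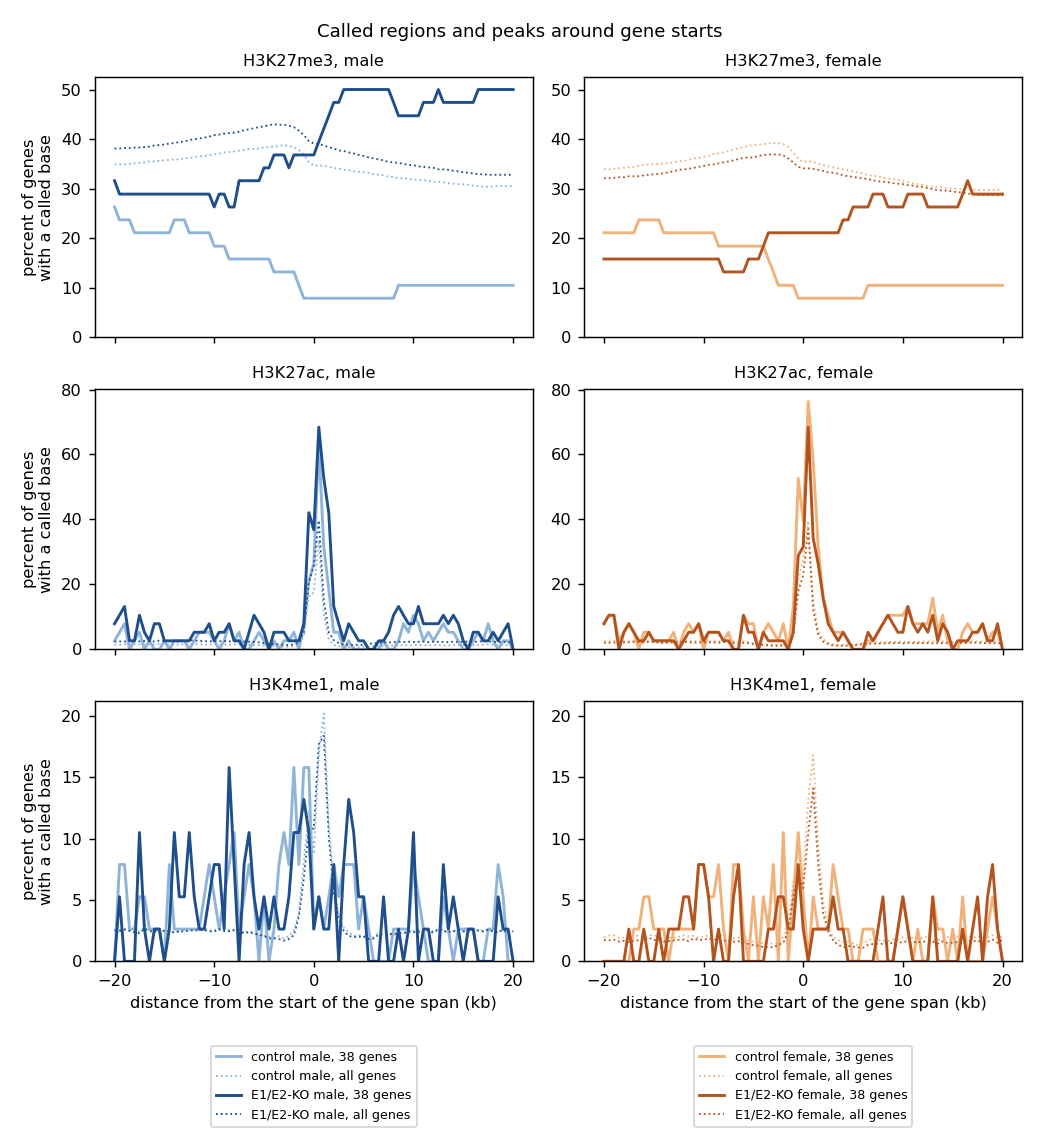
Percent of the 38 genes (solid lines) and of all genes (dotted lines) with a called base at each distance from the start of the gene span, in kb, in steps of 500 bp, for each mark and sex. H3K27me3 at the members is lowest around the start in control male liver (7.89%) and reaches 36.8% at the start in E1/E2-KO male liver and climbs further inside the gene, while H3K27ac is highest just inside the gene in all 4 lists.

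The members with and without a rise of H3K27me3 in male liver differed in median length and had similar H3K27ac. Median gene length was 15.3 kb for the 16 members with a rise and 24.2 kb for the 19 members under 25% in both male lists. Median H3K27ac within 10 kb, unscaled, was 1768 bp and 2290 bp in control male liver, and 3440 bp and 3585 bp in E1/E2-KO male liver. Unscaled H3K27ac was higher in E1/E2-KO male liver at 9 of the 16 (56.2%) and at 10 of the 19 (52.6%). Over all genes of these classes the shares were 45.9% of 2205 and 25.5% of 12854, and the median lengths 14.8 and 15.4 kb. With bases scaled to list totals, H3K27ac was higher at 3 members, Hc and Plg of the 16 and Serpind1 of the 19, and lower at 8.

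Marker genes of cell types were measured beside the members. Of all genes, coverage was higher in E1/E2-KO at 9.86% in male and 6.29% in female liver, and lower at 6.07% and 7.59%. H3K27ac lay within 10 kb of 60.4% of all genes in control and 69.0% in E1/E2-KO males, and of 67.0% and 68.4% in the respective females. Of 8 hepatocyte markers, H3K27me3 coverage was higher in E1/E2-KO male liver at 3 and in E1/E2-KO female liver at 2, and all 8 had H3K27ac within 10 kb in each list. Their summed H3K27ac, unscaled, came to 10009 bp in control and 24350 bp in E1/E2-KO males, and 25090 bp and 20962 bp in the respective females. Apoa1, an apolipoprotein gene of hepatocytes, was at 0% in control and 100% in E1/E2-KO males, and 0% and 50.3% in the respective females. Of 7 endothelial markers, coverage was lower at 3 in each sex of E1/E2-KO liver, and their summed H3K27ac, unscaled as well and likewise lowest in control males, came to 3257 bp in control and 14984 bp in E1/E2-KO males, and 11601 bp and 12809 bp in the respective females. Of 8 Kupffer cell or macrophage markers, coverage was higher at 0 in either sex and lower at 1 in E1/E2-KO female liver, Csf1r, which went from 87.2% to 4.42%. No H3K27ac was called near 7 of them in either control list and near 6 in either E1/E2-KO list, the Kupffer cell genes Cd5l and Marco among those at 0 bp in all 4 lists. Their part in the results for the members was not tested.

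Other genes of the pathways are read against all genes, of which 9.86% were higher and 6.07% lower in male liver, and 6.29% and 7.59% in female liver. Of 29 further complement genes, coverage was higher in E1/E2-KO male liver at 7 and lower at 2, and in E1/E2-KO female liver higher at 2 and lower at 5. Serping1, the gene of the C1 inhibitor, was at 0% in control and 100% in E1/E2-KO males, and 0% and 100% in the respective females, and Cfd (factor D) had the same values. Of 28 further coagulation genes, coverage was higher in E1/E2-KO male liver at 4 and lower at 3, and in E1/E2-KO female liver higher at 2 and lower at 5.

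H3K27ac was rich at the members in all 4 groups. The median number of bases under H3K27ac peaks within 10 kb of a member, unscaled, came to 1925 bp in control and 3440 bp in E1/E2-KO males. In the respective females it was 3446 bp and 2644 bp, and over all genes the medians were 691, 1178, 1151 and 999 bp. With bases scaled to list totals, the member medians were 2985, 2872, 2950 and 2673 bp in the same order. Those of all genes were then 1071, 983, 985 and 1010 bp. At least 1 peak lay within 10 kb at 35 members of control male (60.4% of all genes), 35 of E1/E2-KO male (69.0%), 37 of control female (67.0%) and 34 of E1/E2-KO female (68.4%). A peak within 1 kb of the start was found in all 4 lists at 31 of 38 members (81.6%), beside 44.2% of all genes. By group, such a peak was found at 32 in control and 32 in E1/E2-KO males, and 34 and 33 in the respective females, beside 44.8%, 51.8%, 50.8% and 51.4% of all genes. The members without such a peak in some list were C1qa, C1qb, C1qc, C6, Kng1, Klkb1 and Fgb. The annotated span of Klkb1 begins upstream of its RefSeq start, where a peak lay within 1 kb in all 4 lists.

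In male liver H3K27ac was higher in E1/E2-KO at 19 of 38 members, beside 30.5% of all genes, where a change is a difference of at least 1.5 times and 500 bp. It was lower at 0, beside 0.165% of all genes. The counts changed with the way the lists were made comparable. With equal numbers of the widest peaks from each list, 8 members were higher and 0 lower, beside 17.8% and 1.51% of all genes. With bases scaled to the list totals, 3 members were higher (Hc, Serpind1 and Plg) and 8 lower (Masp2, C6, C8g, F12, F7, F2, F13b and Cpb2), beside 9.78% and 18.5% of all genes. In female liver H3K27ac was higher in E1/E2-KO at 0 members, beside 2.65% of all genes, and lower at 8 (21.1%), beside 9.82%. After scaling, 3 remained lower, C3, Hc and C6, beside 3.90% of all genes, whereas 12 were lower with equal numbers of the widest peaks (13% of all genes) and 21 with peaks of at least 500 bp (19.3%). Both changes together, higher in E1/E2-KO male and lower in E1/E2-KO female liver, were called at 6 members, Mbl1, C3, Hc, Klkb1, F11 and Fgg, beside 5.06% of all genes. At 0 members was H3K27ac higher in E1/E2-KO in both sexes (1.97% of all genes), or lower in both (0.0492%). With scaling, 1 member, C6, was lower in both sexes (0.729% of all genes), and 0 were higher in both (1.92%).

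**Figure D4:**
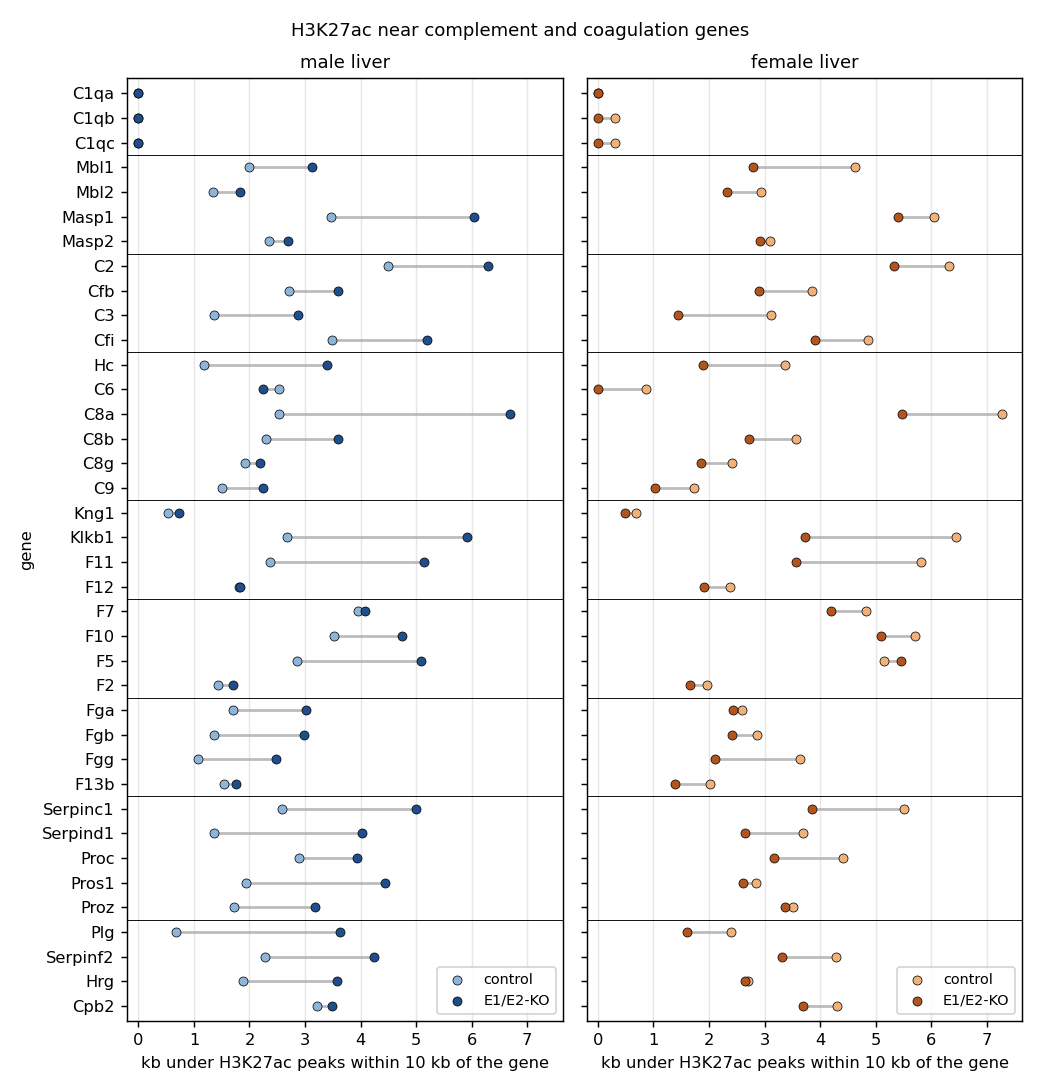
Bases under H3K27ac peaks within 10 kb of each of 38 genes, in kb, in control (light) and E1/E2-KO (dark) liver of each sex, unscaled, with a line joining the 2 lists of a gene. In male liver the E1/E2-KO value exceeds the control value at 34 genes (62.0% of all genes) and in female liver it is below it at 36 (51.2%), whereas with scaling to list totals it is higher at 13 and lower at 22 in males (26.6% and 42.7% of all genes), and higher at 11 and lower at 26 in females (36.6% and 33.4%).

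The H3K27ac values of members are given as control and E1/E2-KO male, then control and E1/E2-KO female. Plg had 670, 3625, 2401 and 1609 bp, the widest unscaled ratio in male liver (5.41 times), and with scaling 1039, 3026, 2056 and 1627 bp. Hc had 1182, 3397, 3374 and 1887 bp, and with scaling 1833, 2836, 2889 and 1908 bp. Both sets of Hc values were thus higher in E1/E2-KO male and lower in E1/E2-KO female than in control liver. Serpind1 had 1353, 4023, 3687 and 2640 bp. C3 had 1366, 2877, 3110 and 1443 bp, and with scaling 2118, 2402, 2662 and 1459 bp. The fall of C3 in E1/E2-KO female liver passed the rule in both forms, the rise in E1/E2-KO male liver only unscaled.

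At the fibrinogen genes, Fga had 1695, 3023, 2596 and 2439 bp of H3K27ac in the same order of groups. Fgb had 1361, 2979, 2859 and 2414 bp, and Fgg 1067, 2484, 3633 and 2113 bp. Peaks near these neighbours are partly shared between their windows. Unscaled, the lowest value of each gene was in the control male list, whereas with scaling to list totals that of Fga was highest there, at 2628 bp. In E1/E2-KO male liver, where H3K27me3 regions covered the 3 genes, each had H3K27ac. Neighbouring F7, F10 and Proz had H3K27ac of 3947, 4083, 4820 and 4191 bp for F7, of 3521, 4754, 5716 and 5095 bp for F10 and of 1723, 3178, 3518 and 3368 bp for Proz. In E1/E2-KO male liver, where H3K27me3 covered them, none of the 3 had less H3K27ac than in control male liver, unscaled. With scaling all 3 had less, at 6120 and 3409 bp for F7, which passed the rule, 5460 and 3969 bp for F10, and 2672 and 2653 bp for Proz.

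C6, which encodes a component of the membrane attack complex, had an H3K27ac pattern of its own. It measured 2527 bp in control and 2248 bp in E1/E2-KO males, and 859 bp and 0 bp in the respective females. It was the one member with more H3K27ac in male liver in both genotypes, beside 0.103% of all genes, and scaling kept this order at 3918, 1877, 735 and 0 bp. C6 had no H3K27me3 in any list. C9, of the same complex, had 1498, 2235, 1733 and 1029 bp, and with scaling it too was higher in male liver in both genotypes, as were 0.510% of all genes.

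Between the sexes, control female liver had more H3K27ac than control male liver at 20 members, beside 29.6% of all genes, and less at 1, C6, beside 0.224%. In E1/E2-KO liver, males had more at 8 members, beside 9% of all genes, and females at 0, beside 1.40%. Females had more in both genotypes at 0 members (0.751% of all genes). Scaled values gave 5 members higher in control female (8.95% of all genes), 2 higher in control male (15.5%), 4 higher in E1/E2-KO male (3.51%) and 1, Mbl2, higher in E1/E2-KO female liver (3.39%). Mbl2 had 1345 bp in control and 1823 bp in E1/E2-KO males, and 2938 bp and 2316 bp in the respective females.

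Other neighbours and the remaining members were as follows. Klkb1 had 2676, 5922, 6447 and 3728 bp of H3K27ac in the same order of groups, and F11 beside it 2367, 5138, 5823 and 3570 bp. C8a had 2535, 6684, 7278 and 5481 bp, the highest value among the members in E1/E2-KO male, control female and E1/E2-KO female liver, and C8b beside it 2290, 3585, 3571 and 2712 bp. C2 had 4486, 6302, 6317 and 5321 bp, and its neighbour Cfb 2717, 3602, 3850 and 2904 bp. Each of these 6 genes had its lowest unscaled H3K27ac in the control male list, the shortest, whereas with scaling C2 (6956 bp), Cfb (4213 bp) and C8b (3551 bp) had their highest value there. None of the 6 had H3K27me3 in any list. Kng1, at 525, 740, 687 and 490 bp, was the lowest of the members with a peak in every list, and Hrg on the same chromosome had 1885, 3572, 2694 and 2649 bp. Serpinc1 had 2592, 4991, 5512 and 3861 bp, and Mbl1 2000, 3124, 4630 and 2796 bp. Members not given singly ranged from 1427 to 3480 bp in control male liver, with F2 lowest and Cfi highest.

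Counted as peaks, 117 H3K27ac peaks lay near members in control males and 183 in E1/E2-KO males. Of the latter, 81 (44.3%) had no overlapping control peak, beside 54.5% of all peaks, and 7 control peaks (5.98%) had none in E1/E2-KO, beside 9.66%. In female liver 161 control and 172 E1/E2-KO peaks gave 21 gained (12.2%) and 34 lost (21.1%), beside 24.9% and 27.9% of all peaks. In each of these comparisons the share of changed peaks was lower near the members than in the whole list.

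H3K4me1 near the members was sparser in female than in male liver. The median within 10 kb, unscaled, came to 1824 bp in control and 1691 bp in E1/E2-KO males, and 1117 bp and 646 bp in the respective females. Over all genes it was 1215, 1206, 933 and 771 bp. With bases scaled to list totals, the member medians lay closer together, at 1555, 1478, 1236 and 830 bp. Those of all genes were then 1035, 1054, 1032 and 990 bp. At the start, the mark was less frequent than over all genes. A peak within 1 kb was found at 16, 11, 10 and 8 members in the same order, beside 47.1%, 45.7%, 39.8% and 36.2% of all genes. C2, C8a, C8g and F7 had one in all 4 lists, beside 28% of all genes.

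In male liver, H3K4me1 was higher in E1/E2-KO at 5 members, beside 10.1% of all genes, and lower at 6, beside 11.1%. In female liver it was higher at 3, beside 5.53%, and lower at 10, beside 17.1%. These shares were near those of all genes or above them by a few genes. The 3 members lower in both sexes were Mbl2, F11 and Fgg, beside 3.51% of all genes, and the 1 higher in both was Serpinc1, beside 1.87%.

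**Figure D5:**
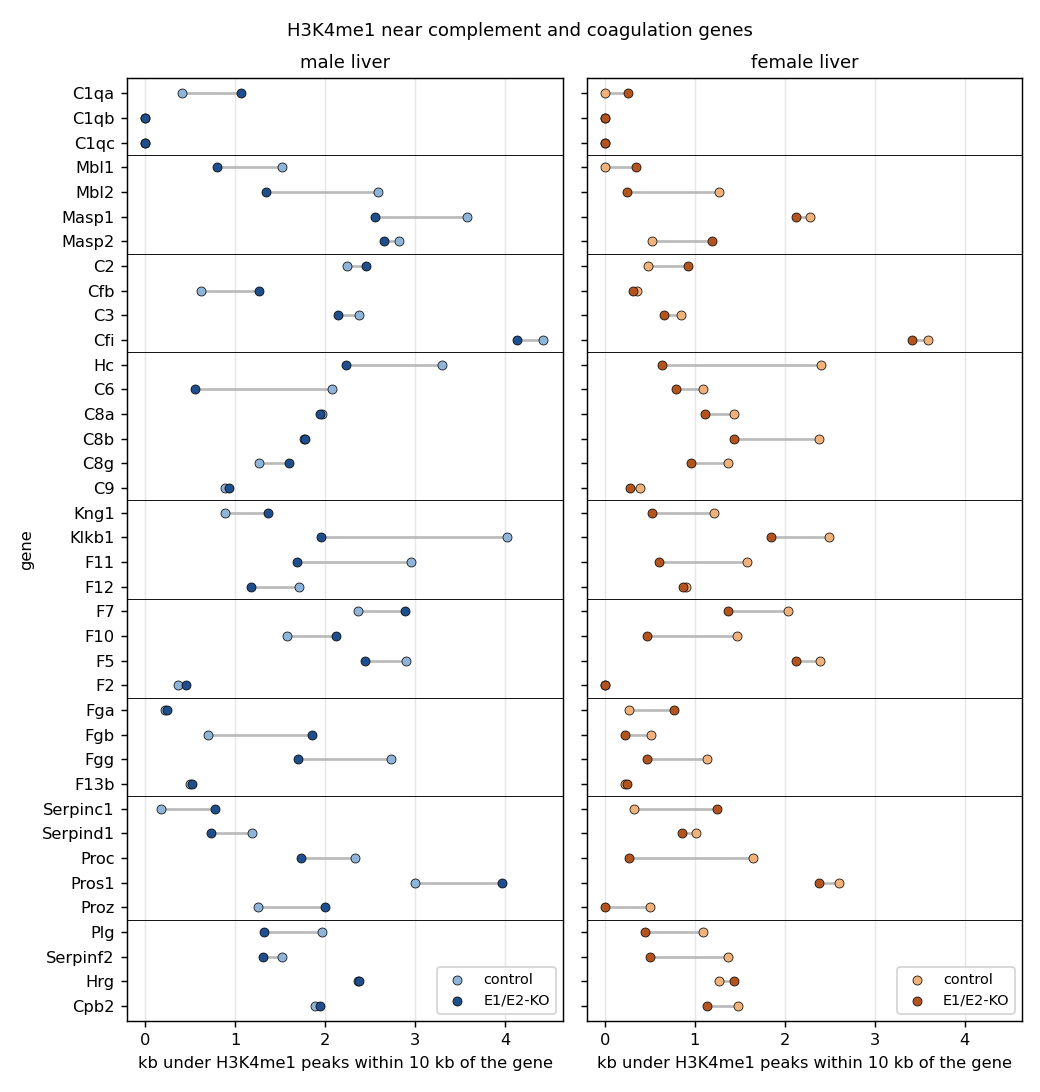
Bases under H3K4me1 peaks within 10 kb of each of 38 genes, in kb, in control (light) and E1/E2-KO (dark) liver of each sex, unscaled, with a line joining the 2 lists of a gene. In males the E1/E2-KO value is higher than the control value at 18 genes and lower at 18 (36.5% and 40.9% of all genes). In females it is higher at 8 and lower at 27 (26.2% and 48.5%), and Serpinc1 is among the few genes that are higher in both sexes. With scaling to list totals it is higher at 19 and lower at 17 in males (38.4% and 39.0%). In females it is then higher at 14 and lower at 21 (36.1% and 38.7%).

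Mbl2 had 2588 bp of H3K4me1 in control and 1336 bp in E1/E2-KO males, and 1265 bp and 244 bp in the respective females. Fgg had 2734, 1695, 1138 and 470 bp in the same order, and F11 had 2952, 1687, 1583 and 601 bp. All 3 were highest in control male and lowest in E1/E2-KO female liver, and they passed the rule in both sexes with scaling as well, beside 2.41% of all genes, though not when equal numbers of the widest peaks were taken (0 members, beside 3.62%). Serpinc1, the antithrombin gene, had 180, 775, 325 and 1251 bp, so that each E1/E2-KO list exceeded both control lists. With scaling its values were 153, 678, 360 and 1607 bp, and with equal numbers of the widest peaks it too lost the call (2.77% and 2.20% of all genes were called in these forms).

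More H3K4me1 in male than in female liver was called at 14 members in control, beside 20.1% of all genes, and at 23 in E1/E2-KO liver, beside 30.8%. With scaling the counts were 7 and 15, beside 8.84% and 12.6%, and within the gene span alone 7 and 8, beside 13.6% and 20%. It was called in both genotypes at 9 members, beside 9.85% of all genes. These were Mbl2, Masp2, C2, C3, F11, Fgg, Proz, Plg and Hrg, and with scaling Mbl2, Masp2, C2, C3, Fgg and Proz kept the call, beside 2.36% of all genes. With equal numbers of the widest peaks, Mbl2, Masp2, C2 and Hrg kept it, beside 5.44%. Listed as control and E1/E2-KO male, then control and E1/E2-KO female, Masp2 had 2819, 2657, 521 and 1188 bp, and C2 had 2244, 2448, 483 and 921 bp. C3 had 2371, 2145, 847 and 655 bp, and Plg 1959, 1324, 1096 and 450 bp. Proz had 1250, 1992, 497 and 0 bp, and Hrg 2360, 2376, 1272 and 1436 bp. Unscaled, each of the 9 members had both male values above both female values. With scaling Plg lost this order, at 1157 bp in E1/E2-KO male and 1212 bp in control female liver. Mbl2 lost it too, at 1168 and 1399 bp in these lists, as did F11, at 1475 and 1751 bp. The others kept it. In control liver 0 members had more H3K4me1 in females, beside 2.32% of all genes, and in E1/E2-KO liver 1 did, Fga, beside 1.86%.

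Fga had 223, 245, 266 and 770 bp of H3K4me1 in the same order, and Fgb 701, 1850, 513 and 220 bp. Within the fibrinogen cluster, the 3 genes thus changed differently, with Fgg lower in E1/E2-KO liver of both sexes, Fgb higher in E1/E2-KO male and Fga higher in E1/E2-KO female liver. Klkb1 had 4018, 1950, 2489 and 1845 bp, and Cfb, beside C2, had 622, 1262, 357 and 313 bp. F7 had 2362, 2880, 2039 and 1365 bp, and F10 had 1571, 2118, 1473 and 466 bp. Both were lowest in E1/E2-KO female liver, as was Proz. C8a had 1967, 1937, 1430 and 1116 bp and C8b 1758, 1775, 2385 and 1432 bp. Kng1 had 884, 1364, 1209 and 520 bp.

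Members without any H3K4me1 peak within 10 kb in some list, beside the C1q genes, were Mbl1, F2 and Proz. Mbl1 had 1522 bp in control and 794 bp in E1/E2-KO males, and 0 bp and 342 bp in the respective females. F2 had 362, 454, 0 and 0 bp in the same order, so that the mark was called in male liver alone. C6 fell from 2071 bp in control male to 550 bp in E1/E2-KO male liver, with 1086 and 790 bp in female liver. Cfi, at 4419, 4129, 3592 and 3410 bp, was the highest member in each list.

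As peaks, 161 H3K4me1 peaks lay near members in control males and 133 in E1/E2-KO males, with 41 gained (30.8%) and 68 lost (42.2%), beside 29.5% and 31.8% of all peaks. In female liver 92 and 77 peaks gave 25 gained (32.5%) and 41 lost (44.6%), beside 32.0% and 37.2%. Lost H3K4me1 peaks were thus more frequent near members than in the whole list in each sex, gained peaks about as frequent.

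Promoter sequence was examined beside the marks. The table of RefSeq promoters held 31 promoters of 30 members, each placed once in mm9 by its exact sequence of 300 bases. The observed-over-expected ratio of CpG, low where a promoter has no CpG island, had a median of 0.253 in them and of 0.384 over all 32841 promoters. A ratio of at least 0.6 was found in 1 member promoter (3.23%), that of Pros1, beside 35.8% of all promoters. The C/EBP motif TTGCNNAA was found on either strand in 9 of 30 members (30.0%), namely C3, C9, Klkb1, F11, Fga, Fgb, Serpinc1, Hrg and Cpb2, beside 10.8% of all promoters. These 9 included members with and without a rise of H3K27me3.

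Other motifs were found in shares closer to those of all promoters. TATAAA was found in 4 members (13.3%), beside 13.6%, and CTGGGAA in 4, Masp2, C6, Fgb and Fgg (13.3%), beside 11.1%. The FOXA core TGTTTAC was found in 2, the neighbours Klkb1 and F11 (6.67%), beside 3.65%, and GAGGAAGT in 1, C1qc (3.33%), beside 3.20%. CAAAGTCC, an HNF4 core, and the palindromic HNF1 site were found in 0 members, beside 1.42% and 0.00913% of all promoters, which says only that these letters are not in the windows searched. A match is a description of the sequence, not a bound site.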

How the data were processed

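Livers of individual mice were processed for ChIP-seq by the authors, with 47 samples in the labels. Before calling, the authors joined the reads of a group (paired ends of 50 nt) and mapped them with Bowtie2 2.3.2. SICER 1.1, with windows of 400 bp and gaps of 2400 bp, gave the H3K27me3 regions, and MACS2 2.1.1 at its defaults gave the peaks of the other marks, as their methods state. The authors deposited 12 lists of mm9 coordinates without score or read count. Tool versions are those of the submitters' processing notes.

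Then 1 base was added to SICER ends, which lie short of the window. Gene spans came from GENCODE M1, the annotation of NCBIM37 (mm9). Coverage is the percent of a span inside regions, with a change from 25 points. H3K27ac and H3K4me1 are bases under peaks within 10 kb of a span, with a change from 1.5 times and 500 bp. Start peaks lie within 1 kb. A peak is gained or lost when it overlaps none of the other list by 1 bp. No test was possible with 1 pooled list per group. All members are accounted for, with values in all 4 lists for those with H3K27me3 coverage of 25% or more, without a peak in some list, with a like change in both sexes or both genotypes, or in a cluster of neighbours. The members and gene lists were chosen with earlier results of these data known. RefSeq promoters (GRCm38.p6) were placed in mm9 by exact sequence. Alternatives stand in the closing section. Joining of neighbours, RefSeq starts and the background of genes with H3K27ac were added after seeing the data. Counting of overlaps was tested on the control female H3K27ac list with bases doubled near 200 chosen genes, which were all recovered (100% of 200). Python 3.11.15, NumPy 2.4.6, SciPy 1.17.1 and matplotlib 3.10.9 were used.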

Additional observations from a re-analysis of the deposited data

Results flagged for a closer look

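At 6 members the change in H3K27ac went opposite ways in the sexes, with more bases within 10 kb in E1/E2-KO than control male liver and fewer in E1/E2-KO than control female liver, beside 5.06% of all genes. The change was 1124 bp in male and -1834 bp in female liver at Mbl1, 1511 and -1667 bp at C3, and 2215 and -1487 bp at Hc. It was 3246 bp in male and -2719 bp in female liver at Klkb1, 2771 and -2253 bp at its neighbour F11, whose window it partly shares, and 1417 and -1520 bp at Fgg. Of these, C3, Hc and Fgg lay inside H3K27me3 regions in E1/E2-KO male liver, and Mbl1, Klkb1 and F11 lay in none. In E1/E2-KO female liver C3 was covered to 100%, Hc to 84.1% and Fgg to 0%. The difference between the sexes was not tested, since each group is 1 pooled list. The control male H3K27ac list covers 17.3 Mb and the other 3 lists cover 26.5 to 32.0 Mb. With bases scaled to list totals, both calls were made at 1 member, Hc, beside 0.733% of all genes. With equal numbers of the widest peaks they were made at 6, Masp1, Hc, Klkb1, Serpinc1, Serpind1 and Plg, beside 3.76%.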

How the results depend on the processing

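No paired analysis was possible because the livers of a group were pooled before regions and peaks were called, and for the same reason no liver could be left out. Depth is unknown, so a base outside a list may have had too little signal to be called. The rise of H3K27me3 coverage in E1/E2-KO male liver was counted at 11 to 16 members over all alternatives and the female rise at 5 to 9, and a fall was counted at 0 in each. The H3K27ac and H3K4me1 counts moved with scaling, list length, peak width and window, and the cause of each shift below was not tested. Shares in parentheses are those of all genes under the same alternative, or of all peaks for gained and lost peaks.

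With the widest 50% of the H3K27me3 regions, the female rise was counted at 5 members (5.15%). With changes from 50 points, coverage was higher in E1/E2-KO male than female liver at 7 (6.4%). For H3K27ac in E1/E2-KO male liver, 10 members were higher with changes from 2 times (19.2%), 8 with equal numbers of the widest peaks (17.8%) and 3 with scaling to list totals (9.78%), and 8 were lower with scaling (18.5%) and 1 with peaks of at least 500 bp (1.04%). In E1/E2-KO female liver, 2 were lower with changes from 2 times (3.11%), 3 with scaling (3.90%) and 21 with peaks of at least 500 bp (19.3%). More H3K27ac in control female liver was counted at 13 members with changes from 2 times (17.8%), 13 with equal numbers (19.6%) and 5 with scaling (8.95%), and more in control male liver at 2 with scaling (15.5%). More H3K27ac in E1/E2-KO male liver was counted at 3 with changes from 2 times (3.57%), 4 with scaling (3.51%) and 13 with peaks of at least 500 bp (17%), and more in E1/E2-KO female liver at 1 with equal numbers (2.97%), with scaling (3.39%) and with peaks of at least 500 bp (3.05%).

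For H3K4me1 in E1/E2-KO male liver, 3 members were higher within the gene span (7.65%), 3 within 50 kb (8.33%), 9 with peaks of at least 500 bp (15.5%) and 2 with neighbours counted once (10.1% of single genes), and 3 were lower within the span (8.33%), 2 with changes from 2 times (5.14%) and 10 with peaks of at least 500 bp (17.8%). In E1/E2-KO female liver, 1 was higher within 50 kb (4.42%) and 1 with peaks of at least 500 bp (9.69%), and 4 were lower within the span (11.1%) and 6 within 50 kb (17.6%). More H3K4me1 in control male liver was counted at 7 within the span (13.6%), 7 with changes from 2 times (10.1%), 9 with equal numbers (14.8%) and 7 with scaling (8.84%), and more in control female liver at 1 within the span (1.94%), 1 with equal numbers (4.71%), 2 with scaling (7.85%) and 1 with peaks of at least 500 bp (7.20%). More in E1/E2-KO male liver was counted at 8 within the span (20%) and 15 with scaling (12.6%), and more in E1/E2-KO female liver at 0 within 50 kb (0.997%), 2 with equal numbers (4.17%), 3 with scaling (9.73%) and 4 with peaks of at least 500 bp (5.45%).

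Merging peaks within 1 kb gave 34 gained H3K27ac peaks in male (49.2%) and 16 lost in female liver (23.8%), and 25 gained (27.8%) and 41 lost (27.4%) H3K4me1 peaks in male liver, while asking for 50% of the peak to be covered gave 15 lost H3K27ac peaks in male liver (13.3%). Listed as control and E1/E2-KO male, then control and E1/E2-KO female, a peak over the start itself was found at 10, 14, 15 and 12 members for H3K27ac (17.6%, 25.9%, 27.6% and 22.9%) and at 1, 1, 2 and 1 for H3K4me1 (8.74%, 10.8%, 6.73% and 5.97%).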

Other observations

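Neighbouring members did not always move together. Of 6 groups of members within 20 kb of each other, the C1q genes were covered by H3K27me3 in all 4 lists, the fibrinogen genes and F7, F10 and Proz gained coverage in E1/E2-KO male liver, and C8a with C8b, C2 with Cfb, and F11 with Klkb1 had 0% in all lists. In E1/E2-KO female liver, Fgb alone of the fibrinogen genes passed the 25 point threshold, and F7, F10 and Proz remained at 0%.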
